A study of Homo sapiens with 4 samples.

Results

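The NRF2 axis was followed here through 9 genes in SW1990, an established line of human pancreatic ductal adenocarcinoma, in cells given vehicle or gomisin G. The genes were taken by symbol from the deposited table of gene counts, and all 9 were found among its 58735 genes. They are NFE2L2 and KEAP1 (the transcription factor NRF2 and its sensor), GCLC and GCLM (glutathione synthesis), TXNRD1 and SRXN1 (thioredoxin and peroxiredoxin systems), PGD and TALDO1 (pentose phosphate pathway) and OSGIN1 (a stress-induced growth inhibitor). Both groups were the same unmodified line grown in DMEM and treated for 24 h. One received vehicle, of a composition not given in the sources used here, and the other gomisin G at 10 µM. Gomisin G is a lignan found in the fruits of Schisandra. Each group had 2 libraries, 4 in all, from a single cell line. The series title places the compound on the Hippo-YAP pathway, and the comparison here asks whether transcripts of the NRF2 axis differed between the groups.

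NRF2 is a bZIP factor that is held at low levels by KEAP1, an adaptor that brings it to the CUL3-RBX1 ubiquitin ligase. Electrophiles and oxidants modify cysteines of KEAP1, after which NRF2 escapes degradation, pairs with a small MAF protein and binds antioxidant response elements (AREs) of genes for glutathione, thioredoxin and NADPH supply. Because this control acts on the protein, NRF2 activity is usually read from its target transcripts and not from NFE2L2 mRNA. In pancreatic cancer cells the pathway is known for detoxification and for feeding the NADPH pool.

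The response element is shown first, because NRF2 acts on its targets through such elements. Whether it acts through the stretches shown here was not tested. All 9 genes matched the RefSeq promoter table (GRCh38.p14), with 12 windows of 300 bases, 250 before to 50 after each start. The core motif TGANNNNGC, searched on both strands, was in 7 of the 12 windows and in 41.8% of all 35116 windows of the table. The stricter TGACNNNGC was in 5 of the 12 windows, those of GCLM, KEAP1, TXNRD1 (2 starts) and PGD, and in 13.3% of all windows. The matches to the stricter motif that lie wholly before a start are given below with 10 bases on each side, 5′ to 3′ on the strand of the gene, with the matched bases in capitals. A capital run that begins with GC is the motif read from the other strand. The OSGIN1 line is a match to the core motif only, shown because it overlaps TGANTCA, the AP-1 site. TGANTCA was in 7.71% of all windows and in no other window of the 9 genes.
GCLM: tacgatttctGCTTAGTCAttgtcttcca
KEAP1 (a): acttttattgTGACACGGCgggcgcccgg
KEAP1 (b): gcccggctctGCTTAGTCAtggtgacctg
TXNRD1 (first start): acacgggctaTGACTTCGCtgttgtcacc
TXNRD1 (second start): gtggatttctGCTTTGTCAttctgactct
PGD: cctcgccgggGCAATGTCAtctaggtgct
OSGIN1: acgggcccctGCTGACTCAcgcttatgaa

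The GCLM stretch lies at chr1:93909446-93909474 on the minus strand and overlaps an exon of the GENCODE gene model, which reaches further than the RefSeq start. The KEAP1 stretches lie at chr19:10502807-10502835 and chr19:10502784-10502812 (minus strand, both over an annotated exon). Those of TXNRD1 lie at chr12:104215670-104215698, outside the gene, and at chr12:104286920-104286948, over an exon (plus strand). The PGD stretch at chr1:10398853-10398881 and the OSGIN1 stretch at chr16:83953131-83953159 are both intronic (plus strand). A further TXNRD1 match overlaps the first start. The windows of GCLC, SRXN1 and TALDO1 held neither form of the motif, which says only that these letters are not in those windows. GCLM and KEAP1 (b) carry the same 9 matched bases, and their log2 changes were 0.018 and 0.14. A match is a description of sequence and not evidence of binding.

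Library totals ran from 14580848 to 15245770 counts, and 3 counts, the floor for a gene at 0, corresponded to 0.197 to 0.206 CPM (counts scaled to library size, here with TMM factors for all other values). The gomisin G libraries differed more from each other than the vehicle libraries did. The SD of the log2 difference between replicates over genes was 0.46 for gomisin G and 0.26 for vehicle. Against the vehicle mean, the 3931 longest of the tested genes had a median of -0.32 on the log2 scale in gomisin G replicate 1 and -0.040 in replicate 2, and the 3932 shortest 0.33 and 0.091. All 9 markers of ductal epithelium had counts in every library. They summed to 11944 and 10166 CPM in vehicle and to 9984 and 7847 CPM with gomisin G, so the sum was lower in both treated libraries. KRT8 and KRT18, the most abundant of the 9, had log2 changes of -0.49 and -0.45. As a set the 9 were not lower, with 5 positive and 4 negative changes and a median of 0.041. The part of the lower sum in the results was not tested. Leukocyte markers summed to 4.67 to 6.26 CPM, with 3 to 5 of 6 at 0, and endothelial markers to 0.207 to 0.966 CPM, with 2 or 3 of 4 at 0. Fibroblast markers summed to 4.83 and 4.91 CPM in vehicle and 8.57 and 12.1 CPM with gomisin G, with 3 to 6 of 8 at 0, and their part in the results was not tested.

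All 9 genes were well above that floor, and their levels are compared per kilobase of gene model (RPKM on the same scaling). In vehicle the highest was TALDO1, at 103.1 and 96.4 RPKM, followed by PGD (89.7 and 87.4) and TXNRD1 (88.1 and 85.4). PGD and TXNRD1 overlapped, so their order in vehicle is not beyond the spread. KEAP1 had 40.1 and 36.4 RPKM, GCLM 22.7 and 22.3, NFE2L2 17.5 and 17.1, and GCLC 8.03 and 8.34. OSGIN1 (6.92 and 5.76 RPKM) and SRXN1 (3.43 and 2.64 RPKM) were the lowest. With gomisin G the ranges of PGD (88.4 and 80.4 RPKM) and TXNRD1 (55.4 and 64.9 RPKM) no longer overlapped, while those of OSGIN1 (8.90 and 8.03 RPKM) and GCLC (7.74 and 8.63 RPKM) did.

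**Figure D1:**
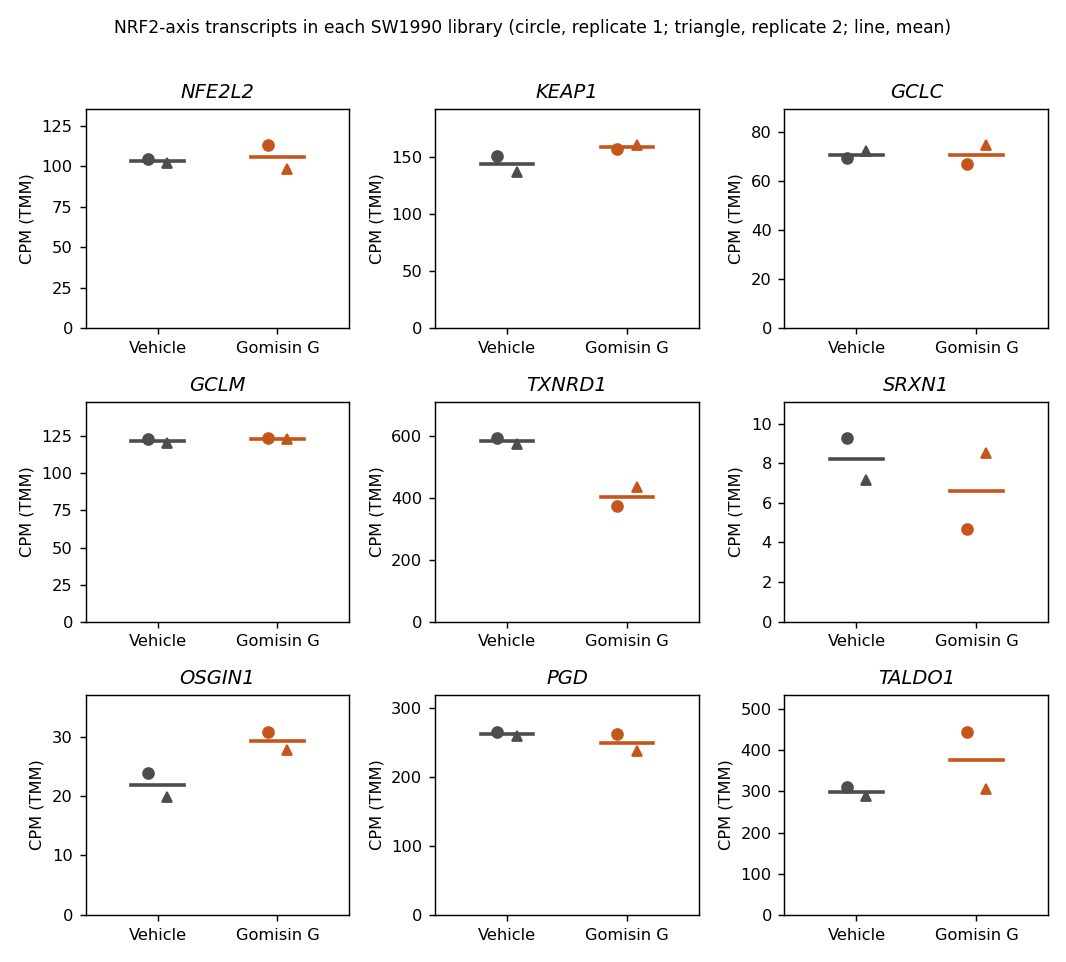
Level of each NRF2-axis gene (y axis, CPM with TMM scaling, from 0) in the vehicle and gomisin G groups (x axis), with 1 point per library and a line at the mean of the 2. TXNRD1 is lower in both gomisin G libraries, at 371 and 436 CPM against 591 and 573 CPM, while TALDO1 and SRXN1 split between the gomisin G replicates.

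None of the 9 transcripts passed the test between gomisin G and vehicle. The factor, both glutathione synthesis subunits and PGD stayed close to their vehicle levels, TXNRD1 was lower in both treated libraries, and OSGIN1 was higher in both. By edgeR's quasi-likelihood test, 0 of 9 had an adjusted p below 0.05, against 1.83% of the 15721 tested genes (0.922% higher and 0.903% lower), and 1 of 9, TXNRD1, had an unadjusted p below 0.05, against 20.6%. DESeq2 and limma voom also called 0 of 9, against 5.66% and 1.68% of tested genes. The groups did not overlap in 4 of the 9 (KEAP1, GCLM, TXNRD1 and OSGIN1), against 54.2% of tested genes. The 95% interval of the change lay within a 1.5-fold difference either way for 5 of the 9, namely NFE2L2, KEAP1, GCLC, GCLM and PGD. The share of all tested genes with such an interval was not computed, so whether 5 of 9 is unusual is not known. The median SE of the change was 0.16 for the 9 and 0.21 over all tested genes. In these bulk samples fewer cells with a transcript and less of it per cell cannot be told apart.

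**Figure D2:**
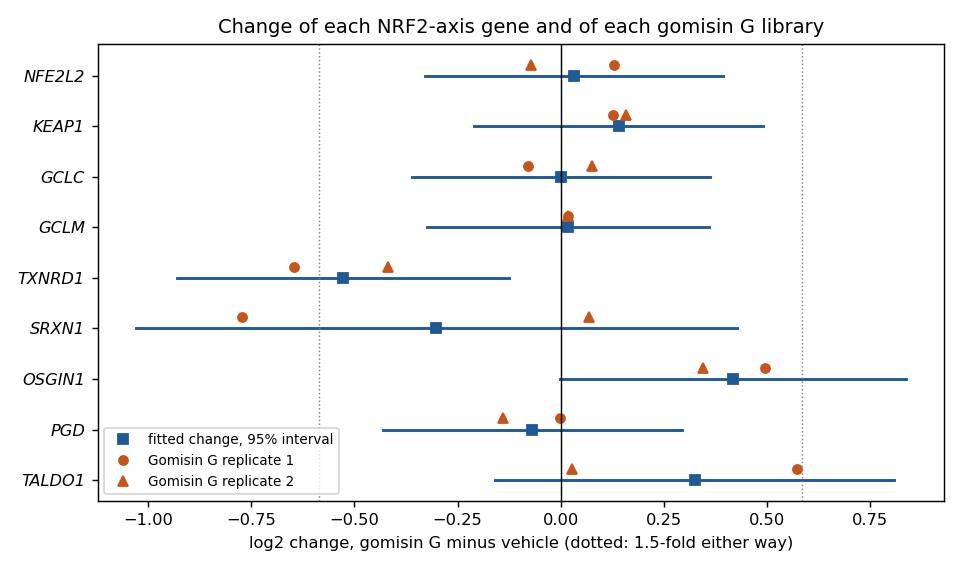
Fitted log2 change of each gene, gomisin G minus vehicle (x axis), as a square with its 95% interval, and the 2 gomisin G libraries against the vehicle mean as a circle and a triangle; dotted lines mark 1.5-fold either way. The interval of TXNRD1, -0.93 to -0.13, is the one of the 9 that does not include 0.

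NFE2L2, the gene of NRF2 (chromosome 2, 177227595 to 177392697, minus strand), had 105 and 102 CPM in vehicle and 113 and 98.3 CPM with gomisin G. The groups overlapped, with the gomisin G libraries on either side of the vehicle pair. The log2 change was 0.032 (SE 0.16, 95% interval -0.33 to 0.39, adjusted p = 0.929). KEAP1, the sensor gene (chromosome 19, 10486120 to 10503741, minus strand), had 151 and 137 CPM in vehicle and 157 and 161 CPM with gomisin G. Both treated libraries were slightly above the vehicle pair, with a log2 change of 0.14 (SE 0.15, 95% interval -0.21 to 0.49, adjusted p = 0.627). The per-length ratio of NFE2L2 to KEAP1 was 0.436 and 0.468 in vehicle and 0.453 and 0.385 with gomisin G, so the ratios overlapped. NFE2L2 shares 1054 exon bases with AC019080.1 on the same strand, which had 7 to 17 counts per library, and 54 bases with AGPS on the opposite strand, which had 1005 to 1572. How reads in shared bases were counted, and whether strand was used, is unknown here.

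The other genes that control NRF2 were a list of 11, all tested, with a median log2 change of -0.074 against 0.0092 over all tested genes. None passed the test with edgeR, against 1.83% of all tested genes. Only SQSTM1 had an unadjusted p below 0.05, against 20.6%, and DESeq2 called that same gene, against 5.66%. SQSTM1 encodes p62, an autophagy receptor that binds KEAP1. It had 402 and 424 CPM in vehicle and 602 and 670 CPM with gomisin G, a log2 change of 0.62 (SE 0.17, adjusted p = 0.102). For CUL3, the scaffold of the ligase that degrades NRF2, the log2 change was -0.36 (adjusted p = 0.263), and for its RING partner RBX1 it was 0.34 (adjusted p = 0.424). BACH1, a repressor at the same elements, was at 30.2 and 29.7 CPM in vehicle and split with gomisin G between 17.6 and 31.1 CPM (adjusted p = 0.538).

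Glutamate-cysteine ligase makes the first and rate-limiting step of glutathione synthesis, with GCLC as its catalytic and GCLM as its modifier subunit. GCLC (chromosome 6, 53497341 to 53616970, minus strand) had 69.4 and 72.1 CPM in vehicle and 66.9 and 74.6 CPM with gomisin G, and the groups overlapped. GCLM (chromosome 1, 93885205 to 93909456, minus strand) had 123 and 121 CPM in vehicle and 124 and 123 CPM with gomisin G. Both treated values of GCLM stood above both vehicle values, but by a margin far smaller than the standard error of its change. The log2 change of GCLC was 0.00031 (SE 0.16, 95% interval -0.36 to 0.36, adjusted p = 0.999) and that of GCLM 0.018 (SE 0.15, 95% interval -0.32 to 0.36, adjusted p = 0.960). The interval of GCLM thus spans 0.799 to 1.28 times the vehicle level. With the length trend removed the log2 change of GCLC was 0.15 (adjusted p = 0.497). The per-length ratio of GCLM to GCLC was 2.83 and 2.67 in vehicle and 2.95 and 2.64 with gomisin G, an overlapping range. GCLC shares 529 exon bases with AL033397.1, which had 0 or 1 count per library. The handling of reads in shared exons is unknown here, so its level may be understated.

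Of 25 further glutathione genes, all tested, edgeR called 0, against 1.83% of all tested genes. At an unadjusted p below 0.05, 5 were higher and 1 lower, against 20.6% in either direction. DESeq2 called 1 higher (GGT1) and 1 lower (GSTM4), against 5.66%. GSTM2, a transferase gene that the list does not hold, had 30.6 and 32.2 CPM in vehicle and 11.5 and 13.5 CPM with gomisin G. It fell by 1.32 on the log2 scale (SE 0.18, adjusted p = 0.0223) and kept its call in each of the 4 fits without 1 library. The count of 0 thus depends on which transferases were listed. GSTM2 and GPX2 are named after their values were seen. The median log2 change of the 25 was 0.13, with 0.34 in the first gomisin G library and -0.0043 in the second. GSS, the second enzyme of glutathione synthesis, differed by 0.13 on the log2 scale (adjusted p = 0.672), and GSR, which regenerates reduced glutathione from its disulfide, by -0.032 (adjusted p = 0.926). SLC7A11, the cystine transporter subunit that supplies the cysteine, had 37.2 and 32.4 CPM in vehicle and 26.2 and 39.1 CPM with gomisin G (adjusted p = 0.844). GPX4, the peroxidase that reduces lipid peroxides, had 227 and 214 CPM in vehicle and 376 and 255 CPM with gomisin G (log2 change 0.52, adjusted p = 0.218). The largest log2 change of the list was that of GPX2, a glutathione peroxidase gene at low level, with 5 and 18 counts in vehicle and 47 and 31 with gomisin G (1.71, SE 0.55, adjusted p = 0.144). Among genes whose mean log2 CPM reached 1, the largest differences were in GGT1, which cleaves extracellular glutathione (log2 change 1.16, SE 0.27, adjusted p = 0.0736), and in the transferase gene GSTM4 (-0.99, SE 0.21, adjusted p = 0.0583). MGST3, a microsomal transferase, followed with 0.52 (adjusted p = 0.177). GSTM2, GSTM4 and GGT1 have close copies, and the gene models of GSTM2 and GSTM4 overlap on the same strand, so their values are uncertain.

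TXNRD1, which encodes the cytosolic selenoenzyme that reduces thioredoxin with NADPH (chromosome 12, 104215779 to 104350305, plus strand), showed the largest difference of the 9. It had 591 and 573 CPM in vehicle and 371 and 436 CPM with gomisin G. Both treated libraries were below both vehicle libraries, and the gap between the groups was wider than that within either. The log2 change was -0.53 (SE 0.17, 95% interval -0.93 to -0.13), or 0.694 times the vehicle level, with an unadjusted p of 0.0164 and an adjusted p of 0.150. The DESeq2 adjusted p was 0.0687. A change of larger size was seen in 24.9% of tested genes. Without gomisin G replicate 1 the log2 change was -0.42 (adjusted p = 0.00343) and without replicate 2 it was -0.65 (adjusted p = 5.2e-07), fits in which the vehicle pair alone supplies the spread. Without vehicle replicate 1 or 2 the adjusted p was 0.745 and 0.832. The gene model is 6708 bases long, and with the length trend of each library removed the log2 change was -0.44 (adjusted p = 0.0925).

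SRXN1 encodes sulfiredoxin, which restores hyperoxidised peroxiredoxins (chromosome 20, 646615 to 653370, minus strand). It had 134 and 106 counts in vehicle and 68 and 135 with gomisin G, or 9.24 and 7.13 CPM against 4.70 and 8.52 CPM. Replicate 1 of gomisin G was the lowest library, and replicate 2 lay between the vehicle values. The log2 change was -0.30 (SE 0.31, 95% interval -1.03 to 0.43, adjusted p = 0.613), the widest interval of the 9. Leaving out gomisin G replicate 1 gave 0.057 and leaving out replicate 2 gave -0.80, so its direction depended on replicate 1. Without vehicle replicate 1 it was -0.11 and without vehicle replicate 2 -0.48. Of its 2698 bases, 2292 are shared with the overlapping gene AL121758.1 on the same strand, which had 1 to 3 counts per library. With the handling of such reads unknown, the level of SRXN1 is uncertain.

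Transcripts of the partner proteins were not lower in both treated libraries. TXN, thioredoxin itself, had 356 and 366 CPM in vehicle and 530 and 329 CPM with gomisin G (log2 change 0.25, adjusted p = 0.567). The per-length ratio of TXNRD1 to TXN was 0.283 and 0.267 in vehicle and 0.119 and 0.226 with gomisin G. That of TXNRD1 to GSR, the reductase of the glutathione arm, was 1.89 and 1.81 in vehicle and 1.24 and 1.38 with gomisin G. In both TXNRD1 ratios the groups did not overlap, as was so for TXNRD1 alone and for 54.2% of tested genes. PRDX1, the main cytosolic peroxiredoxin, had 523 and 560 CPM in vehicle and 780 and 552 CPM with gomisin G (adjusted p = 0.449). The per-length ratio of SRXN1 to PRDX1 was 0.00996 and 0.00718 in vehicle and 0.00340 and 0.00871 with gomisin G, and there the groups overlapped. Of 13 further thioredoxin and peroxiredoxin genes, all tested, edgeR called 0, against 1.83% of all tested genes. Only TXNIP had an unadjusted p below 0.05, against 20.6%, and DESeq2 also called it, against 5.66%. TXNIP encodes the thioredoxin-interacting protein, an inhibitor of thioredoxin. It had 66.4 and 64.2 CPM in vehicle and 107 and 109 CPM with gomisin G, a log2 change of 0.73 (SE 0.15, adjusted p = 0.0561). Adjusted p was below 0.05 for TXNIP with upper-quartile factors, with at least 50 counts in 2 samples and with the length trend removed. Next in size were PRDX5 (log2 change 0.46, adjusted p = 0.280) and the mitochondrial reductase gene TXNRD2 (0.35, adjusted p = 0.337).

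In the pentose phosphate pathway the oxidative branch, to which PGLS and PGD belong, makes NADPH, and the non-oxidative branch returns sugars to glycolysis through TKT and TALDO1. PGD, which encodes 6-phosphogluconate dehydrogenase (chromosome 1, 10398592 to 10420144, plus strand), had 266 and 259 CPM in vehicle and 262 and 238 CPM with gomisin G. The groups overlapped, and the log2 change was -0.069 (SE 0.16, 95% interval -0.43 to 0.29, adjusted p = 0.835). With the length trend removed it was -0.19, again without passing the test. TALDO1, which encodes transaldolase (chromosome 11, 747329 to 765024, plus strand), had 309.8 and 289.6 CPM in vehicle and 445 and 306 CPM with gomisin G. Replicate 1 of gomisin G stood apart, and replicate 2 lay between the vehicle libraries. Its log2 change of 0.32 (SE 0.21, 95% interval -0.16 to 0.81, adjusted p = 0.408) became 0.025 when gomisin G replicate 1 was left out and 0.57 without replicate 2. It was 0.19 with the length trend removed.

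PGLS, the lactonase that makes the substrate of PGD, had a larger change than PGD, a difference that was not tested. It had 50.9 and 48.3 CPM in vehicle and 110.2 and 77.8 CPM with gomisin G, a log2 change of 0.92 (SE 0.20, adjusted p = 0.0609). Both treated libraries were above both vehicle libraries, and DESeq2 called the gene (adjusted p = 0.00323). For TKT, transketolase, the log2 change was 0.10 (adjusted p = 0.779), and the ratio of TALDO1 to TKT overlapped between the groups. PRPS2, which turns ribose 5-phosphate into the precursor of nucleotides, differed by -0.48 on the log2 scale (SE 0.16, adjusted p = 0.144). Of the 12 further genes of the pathway and of NADPH supply, all tested, edgeR called 0, against 1.83% of all tested genes. At an unadjusted p below 0.05, 2 were higher and 2 lower, against 20.6% in either direction. The median log2 change was -0.015.

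**Figure D3:**
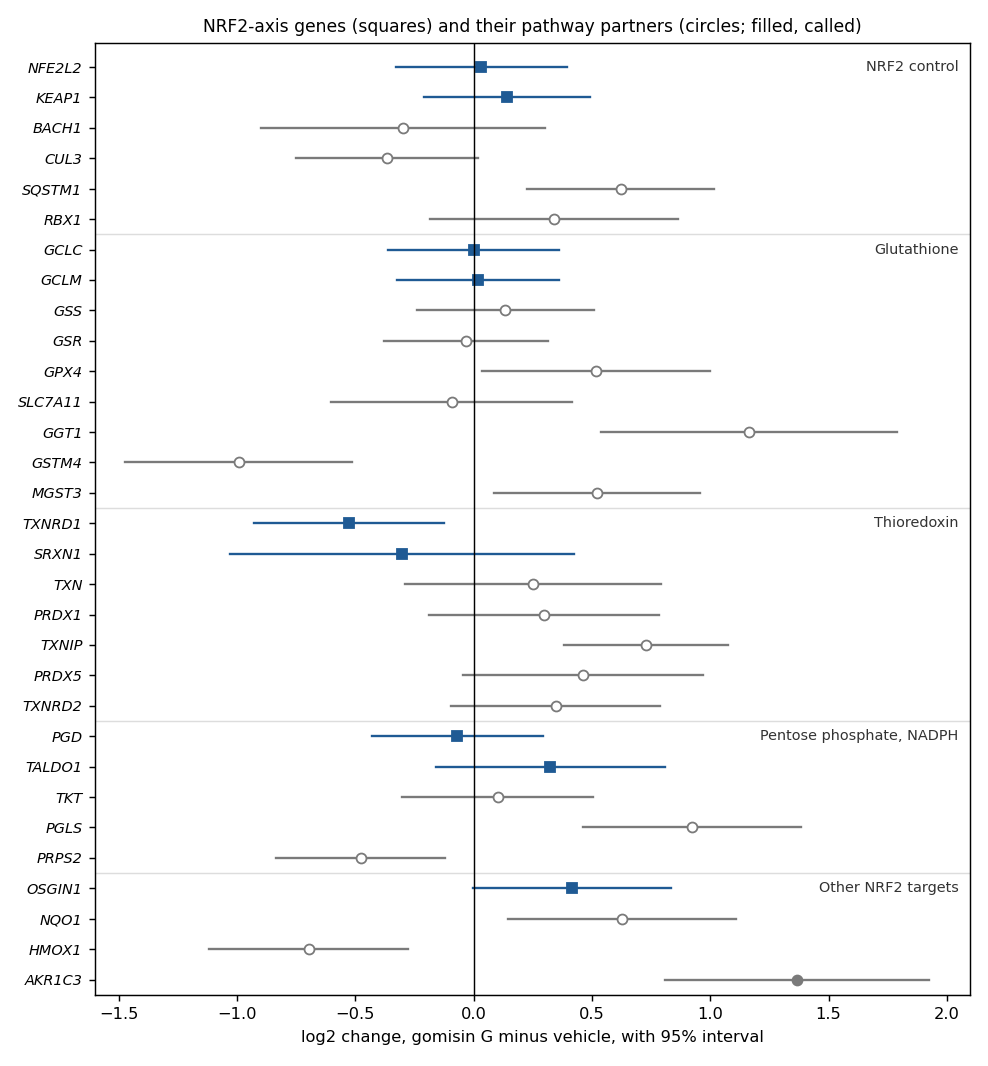
Log2 change, gomisin G minus vehicle, with its 95% interval (x axis) for the 9 genes (squares) and the named genes of the same pathways (circles, filled where called). TXNRD1 at -0.53 is the lowest of the thioredoxin genes shown, PGD at -0.069 lies below PGLS, and AKR1C3 is the filled circle.

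OSGIN1 encodes a flavin-dependent protein induced by oxidative stress that restrains growth (chromosome 16, 83948282 to 83966332, plus strand). It had 23.9 and 19.9 CPM in vehicle and 30.8 and 27.8 CPM with gomisin G. Both treated libraries were above both vehicle libraries, as in 27% of tested genes. The log2 change was 0.42 (SE 0.18, 95% interval -0.0013 to 0.84, adjusted p = 0.244), or 1.34 times the vehicle level. The value was 0.34 when gomisin G replicate 1 was left out and 0.49 without replicate 2. OSGIN1 shares 481 of its 3460 exon bases with AC009119.2, which had 5 to 13 counts per library.

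Of 22 other NRF2 targets, 21 were tested and 1 rose, with 11 higher and 1 lower at an unadjusted p below 0.05, against 20.6% of all tested genes in either direction. Their median log2 change was 0.41, at 0.47 in gomisin G replicate 1 and 0.43 in replicate 2. DESeq2 called 7, all higher, against 5.66% of tested genes, and limma voom 1, against 1.68%. This list holds genes that other factors also control, and its 18 positive changes of 21 stand beside 7977 of 15721 over all tested genes. The list was chosen with earlier results of these data known, so these counts are a description and not a test. AKR1C3, an aldo-keto reductase, rose from 3.45 and 3.43 CPM to 9.46 and 8.33 CPM (log2 change 1.37, SE 0.24, adjusted p = 0.0374). It has close copies, and its call was lost without either vehicle library. NQO1, the quinone reductase often used to read NRF2 activity, had 1069 and 1144 CPM in vehicle and 1922 and 1492 CPM with gomisin G (log2 change 0.63, SE 0.21, adjusted p = 0.153, DESeq2 adjusted p = 0.0334). HMOX1, heme oxygenase, went the other way, with 33.0 and 28.2 CPM in vehicle and 20.1 and 17.7 CPM with gomisin G (log2 change -0.70, SE 0.18, adjusted p = 0.0920). Over all 5 lists, edgeR called 1 of 82 tested genes, against 1.83% of all tested genes, and 20 were higher and 4 lower at an unadjusted p below 0.05, against 20.6% in either direction. DESeq2 called 13 of the 82 (12 higher and 1 lower), against 5.66%. With the length trend removed edgeR called 11 of the 82 (7 higher and 4 lower), against 900 of 15721 tested genes. HMOX1 was among these 11 and NQO1 was not.

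Genes with the most similar pattern were sought by Euclidean distance over the 4 libraries, on log2 CPM against the vehicle mean, among 8860 other genes of at least 4 in mean log2 CPM. Nearest to TXNRD1 were LCORL (distance 0.011) and MAT2A (0.020), the latter the S-adenosylmethionine synthetase gene, with log2 changes of -0.54 and -0.51. OCIAD1 (0.014) and TBRG4 (0.015) were nearest to NFE2L2, ABHD17B (0.032) and PANK2 (0.039) to KEAP1, MED15 (0.017) and BAIAP2L1 (0.021) to GCLM, and NUDT12 (0.017) and DFFA (0.020) to PGD. Within a distance of 0.2 there were 362 genes for TXNRD1 and 1007 for GCLM, so that such likeness is common at 4 libraries.

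**Figure D4:**
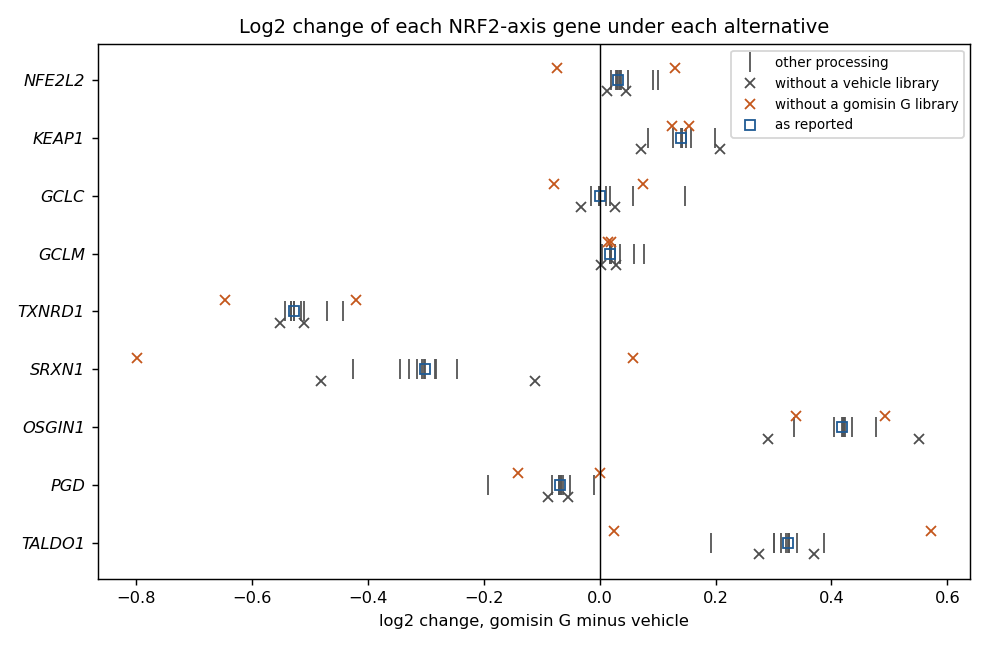
Log2 change of each gene (x axis) as reported (open square), under other processing (vertical ticks) and without 1 vehicle or 1 gomisin G library (crosses). TXNRD1, OSGIN1, TALDO1, KEAP1, GCLM and PGD keep their sign in every run shown. As gomisin G libraries are left out, SRXN1 runs from -0.80 to 0.057 and TALDO1 from 0.025 to 0.57.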

How the data were processed

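RNA was measured by RNA-seq in 4 libraries of SW1990 cells; per the labels, ribosomal RNA was depleted from total RNA. The deposited files hold raw gene counts without normalization, which the authors made with fastp, HISAT2 and featureCounts on hg38, per the submitters' processing notes; versions, strand and multi-mapping settings are not given in the sources used here. The sample tables and the series table differed in 0 values. All 9 genes had the identifiers and coordinates of GENCODE release 29 (GRCh38).

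The groups were compared in R 4.3.3 with edgeR 4.0.16 (expression filter by group, TMM factors, robust quasi-likelihood F test, treatment alone, 2 residual degrees of freedom), with Benjamini-Hochberg adjustment over 15721 tested genes and a threshold of 0.05. All 9 genes passed the filter. All adjusted p-values are from edgeR unless DESeq2 1.42.0 or limma 3.58.1 is named. Standard errors and 95% intervals come from the F statistic and its degrees of freedom. The fit was tested on simulated data with the same spread in both groups and no length trend, unlike these libraries. Log2 values per library used a prior count of 2, and RPKM the gene lengths of the deposited table. Leaving out 1 library leaves its group with a lone sample, assumed to vary like the other group.

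The named genes were the 9, 12 partner genes, and in each list the called genes or otherwise up to 3 of largest change whose mean log2 CPM reached 1, apart from 1 gene not reported here. The 9 genes and the lists were chosen with earlier results of these data known. Chi-square per gene was 6.98 for the vehicle pair and 37.2 for the gomisin G pair, so neither is 1 library deposited more than once. The labels do not say that replicates were separate cultures, so p-values measure only the spread between these libraries. Floors from counts cover counting error only. The intervals of the log2 changes come from the F statistic and, like the p-values, reflect only the spread between these libraries.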

Additional observations from a re-analysis of the deposited data

How the results depend on the processing

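With the expression filter, scaling, tool or dispersion estimate changed, the count of the 9 genes called stayed at 0, and it was 0 with the length trend removed. Leaving out single libraries gave 0 to 4 of the 9, 135 to 6322 over all genes (287 as reported) and 0 to 47 of the wider lists (1 as reported). The 4 were OSGIN1, SRXN1, TALDO1 and TXNRD1, without gomisin G replicate 2. Over all genes DESeq2 called 890 and the length trend removed gave 900. In the wider lists 2 were called with upper-quartile factors, 2 with at least 50 counts in 2 samples and 13 with DESeq2 (12 higher and 1 lower). With the length trend removed 11 were called, 7 higher and 4 lower. The cause was not tested, except that fits without a gomisin G library rest their spread on the closer vehicle pair.

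The log2 changes of GCLC and NFE2L2, near 0 as reported, changed sign between settings, as did that of SRXN1, reported at -0.30. GCLC was -0.014 without the expression filter, -0.0013 with limma voom and -0.0015 with the replicate block, and ranged from -0.079 to 0.074 as single libraries were left out. NFE2L2 ranged from -0.074 to 0.13 and SRXN1 from -0.80 to 0.057 in that way. With the length trend removed GCLC was at 0.15, the highest of its settings.

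Replicate numbers are shared between groups by title only, with 2 pairs. Replicate differences correlated across 12977 genes at r = 0.34, which is a hint from the data and not the design. With the replicate block 2886 genes were called, among them 1 of the 9 (TXNRD1, log2 change -0.53, adjusted p = 0.0308) and 22 of the wider lists.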
